A study of Mus musculus with 9 samples.

Results

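The regions described here are places where chromatin captured with probes against the long noncoding RNA Gm4665 gave an enriched interval at the end of a long noncoding RNA (lncRNA) gene and at no end of a protein-coding gene. An interval was taken when it lay on chromosomes 1 to 19, overlapped no interval of the LacZ control list, had its midpoint within 2 kb of either end of a RefSeq lncRNA gene of mm10, and had no protein-coding gene end within 2 kb of that midpoint. The rule took 1476 of the 37274 autosomal Gm4665 intervals that overlapped no LacZ interval. By the same positions, 398 of 9213 autosomal LacZ intervals were chosen for comparison. The chromatin was that of testis germ cells from 35-day-old wild-type mice of the ICR strain, in 3 groups with 3 replicates each: Gm4665 probes, LacZ probes (LacZ is a bacterial gene that mice lack) and input chromatin. All groups share strain, age and genotype. Sample titles call the captured RNA LncRNA-20 and the labels' protocols Gm4665; no label equates the names, and the protocol of the LacZ samples also describes Gm4665 probes, so LacZ rests on the titles. The labels do not tie replicates to individual animals, and p-values measure only the spread between these samples, which may be technical. No RNA was measured in the data used here, so neither the purity of the germ cells nor expression of any lncRNA named below could be checked.

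Long noncoding RNAs are transcripts that are not translated; many are made in the testis, often in meiotic and haploid germ cells, and most have no described function. Some act on chromatin near their own gene, as Airn does in imprinting, and others work elsewhere in the nucleus or in the cytoplasm. In the capture assay used here, biotinylated probes complementary to an RNA retrieve that RNA with the chromatin cross-linked to it, and the retrieved DNA is sequenced. Probes of this kind can also retrieve the DNA of the gene itself, whose sequence they match. The 5′ end of a gene holds its promoter, where transcription starts, while its 3′ end is where the transcript stops.

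These promoters are shown because the interval lay over the annotated start of the gene; they are the first 6, by fold, among the strongest regions with that arrangement and a RefSeq promoter. Each runs 5′ to 3′ from 250 bases before to 50 bases after the start, from RefSeq on GRCm38.p6 (mm10). Capitals mark matches, on either strand, to the TATA box word TATAAA, the CCAAT box, the GC box GGGCGG, the cAMP response element TGACGTCA, and runs of CA or of GA repeated 5 times. None of these contains another.
Gm4665, chr9:115186052-115186351, minus strand: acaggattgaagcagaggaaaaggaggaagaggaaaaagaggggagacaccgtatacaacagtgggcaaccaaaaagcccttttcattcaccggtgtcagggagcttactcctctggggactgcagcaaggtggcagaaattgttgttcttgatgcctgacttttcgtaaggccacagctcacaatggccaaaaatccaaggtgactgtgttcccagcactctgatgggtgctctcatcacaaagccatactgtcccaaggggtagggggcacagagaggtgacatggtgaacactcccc
Gm11729, chr11:117414139-117414438, plus strand: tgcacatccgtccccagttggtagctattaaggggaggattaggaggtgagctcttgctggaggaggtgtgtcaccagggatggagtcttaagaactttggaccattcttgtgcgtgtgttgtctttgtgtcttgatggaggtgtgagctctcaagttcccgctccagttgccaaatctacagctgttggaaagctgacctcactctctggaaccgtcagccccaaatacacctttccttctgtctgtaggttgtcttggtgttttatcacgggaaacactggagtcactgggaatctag
Gm36304, chr5:100217698-100217997, minus strand: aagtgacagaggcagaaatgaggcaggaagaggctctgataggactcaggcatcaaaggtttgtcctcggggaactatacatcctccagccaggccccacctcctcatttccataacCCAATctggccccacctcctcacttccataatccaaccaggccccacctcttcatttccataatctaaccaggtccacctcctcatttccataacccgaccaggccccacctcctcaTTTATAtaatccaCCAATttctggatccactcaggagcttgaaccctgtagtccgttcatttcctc
Gm13219, chr2:9352010-9352309, plus strand: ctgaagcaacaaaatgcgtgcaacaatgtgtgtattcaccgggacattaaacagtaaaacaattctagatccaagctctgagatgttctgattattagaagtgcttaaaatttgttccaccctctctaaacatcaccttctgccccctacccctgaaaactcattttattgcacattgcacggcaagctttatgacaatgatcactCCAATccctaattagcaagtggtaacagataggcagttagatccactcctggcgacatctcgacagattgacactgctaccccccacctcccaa
Gm51552, chr8:115719408-115719707, minus strand: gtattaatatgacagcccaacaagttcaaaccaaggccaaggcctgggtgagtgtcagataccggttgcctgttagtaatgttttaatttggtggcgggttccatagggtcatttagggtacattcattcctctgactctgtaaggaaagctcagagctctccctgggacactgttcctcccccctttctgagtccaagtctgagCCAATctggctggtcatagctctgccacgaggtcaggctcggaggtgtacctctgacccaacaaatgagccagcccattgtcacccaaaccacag
Gm11772, chr11:120237987-120238286, minus strand: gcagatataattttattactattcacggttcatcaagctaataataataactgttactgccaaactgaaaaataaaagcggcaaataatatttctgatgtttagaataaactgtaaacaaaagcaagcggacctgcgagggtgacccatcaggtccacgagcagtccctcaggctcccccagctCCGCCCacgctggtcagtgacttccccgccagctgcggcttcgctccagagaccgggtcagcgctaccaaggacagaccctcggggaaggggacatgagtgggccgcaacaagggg
The promoters of Gm4665 and Gm11729 held none of these words, and that of Gm36304 held 3 matches. Gm11772 had the most CG dinucleotides, 14 in 300 bases, against 3 to 5 in the other promoters printed.

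The strongest of the 1476 intervals lay over the gene of the captured RNA itself. Gm4665 (gene 100043812, minus strand) runs from 115178427 to 115186101 on chromosome 9, within the body of Osbpl10, which encodes a lipid-binding protein of the oxysterol-binding family. Its interval, from 115165775 to 115191874, had a fold enrichment over input of 129, 101 and 120 in replicates 1, 2 and 3 (mean 116 ± 14.0, SD, n = 3). At 26100 bp this interval took in the whole gene, its promoter included, while the next widest, at Gm38498, measured 2715 bp and the third, at AU015791 and Gm40565, 2639 bp. It met the positional rule because its midpoint fell 397 bp inside the 3′ end. The next highest mean fold in the set was 71.7, at Gm11729. Among all 37274 autosomal Gm4665 intervals without LacZ overlap, the interval over Gm4665 ranked 3 by mean fold and that at Gm11729 ranked 27. The highest mean fold among those outside the set was 143. Fold enrichment here is the authors' deposited value for each interval, and its input library is not named.

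**Figure D1:**
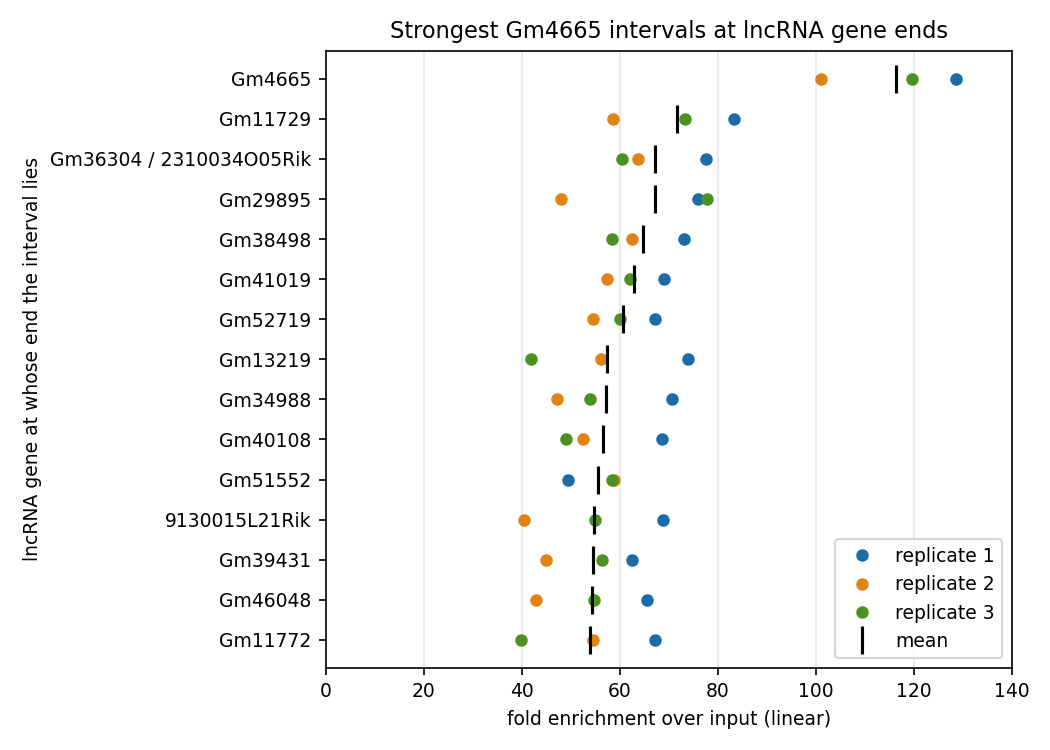
Fold enrichment over input (linear axis) in each of the 3 Gm4665 replicates for the 15 strongest intervals at lncRNA gene ends, one line per interval, named by the lncRNA gene or genes whose end lies within 2 kb; vertical ticks are means over replicates. The interval over Gm4665 is above 100 in every replicate, and the other 14 have means from 53.8 to 71.7.

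After Gm4665 came Gm11729, a short lncRNA gene of 980 bp on chromosome 11 that fits almost wholly under its interval (117413038 to 117415332). Folds there were 83.2, 58.7 and 73.2 (mean 71.7 ± 12.3, SD, n = 3). On chromosome 5 a single interval, from 100216277 to 100218738, lay at the start of Gm36304 and at one end of 2310034O05Rik, whose strand is not in the promoter table. Its folds were 77.7, 63.8 and 60.4 (mean 67.3 ± 9.15, SD, n = 3). These regions were picked by mean fold over the same replicates, so high values in each replicate follow in part from the choice. Replicate 1 was the highest at Gm4665, Gm11729 and Gm36304, as it was at 59.2% of the 1476 intervals.

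At Gm29895 on chromosome 8 the folds were 75.9, 48.1 and 77.7 (mean 67.2 ± 16.6, SD, n = 3), with the midpoint 1289 bp past the 3′ end. Replicate 2 was the low value there. Gm13219 on chromosome 2, a gene of 115055 bp whose nearest protein-coding gene end, that of Gata3, is 504776 bp from the interval, had its interval almost centred on the start, the midpoint lying 42 bp from it. Folds at Gm13219 were 74.0, 56.1 and 41.9 (mean 57.3 ± 16.1, SD, n = 3), so its replicates spread more than at Gm51552 on chromosome 8 (49.3, 58.8 and 58.4, mean 55.5 ± 5.37, SD, n = 3). Gm51552 starts 221 bp from the midpoint of its interval, and the nearest protein-coding gene end, that of the transcription factor gene Maf, lies 12342 bp away.

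Of the remaining strong regions, 3 lay in protein-coding genes. Gm38498 is in Pemt, which encodes a phospholipid methyltransferase (folds 73.0, 62.6 and 58.3), Gm34988 is in the small GTPase gene Rab15 (70.6, 47.1 and 53.8), and Gm11772 is in Bahcc1 (67.2, 54.5 and 39.9). The others stood outside protein-coding genes, among them Gm41019 (69.1, 57.5 and 62.1) and Gm52719 (67.2, 54.4 and 60.04). Gm40108, 9130015L21Rik, Gm39431 and Gm46048 completed the 15, with mean folds of 56.6 ± 10.4, 54.7 ± 14.2, 54.5 ± 8.89 and 54.3 ± 11.3 (SD, n = 3 each). Every one of these genes except Gm11729, 2310034O05Rik, Gm13219 and 9130015L21Rik is a predicted RefSeq model with no curated transcript. Membership of the 15 depended on the replicates used: leaving out replicate 1, 2 or 3 kept 12, 13 or 12 of them, and ranking by the lowest of the 3 folds kept 11.

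Some well-known lncRNAs were among the genes marked. Of 12324 autosomal lncRNA genes, 1455 (11.8%) had such an interval at an end. In the list of lncRNAs with a described function it was 4 of 28 (14.3%, 95% Wilson interval 5.70% to 31.5%). Airn, the antisense RNA that silences Igf2r on the paternal chromosome, was the only 1 of 9 lncRNAs from imprinted regions with an interval (11.1%, 1.99% to 43.5%), and it had one at each end. The LacZ list marked 2 of the 9 (22.2%, 95% Wilson interval 6.32% to 54.7%), H19 (21.1, 5.85 and 13.3) and Mirg (23.7, 10.07 and 16.7). The LacZ share over all autosomal lncRNA genes, 3.33%, lies below that interval, which rests on 2 genes and was not tested. One of the Gm4665 intervals covered the annotated Airn start, with its midpoint 447 bp upstream and within Igf2r, and had folds of 33.1, 22.1 and 17.6 (mean 24.3 ± 7.95, SD, n = 3). Near the Airn 3′ end, within Mas1, folds were 19.1, 16.9 and 18.9 (mean 18.3 ± 1.20, SD, n = 3). Both intervals were above 10 in all replicates, and the ranges of the 3 values overlapped between the 2 ends.

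Norad, a cytoplasmic lncRNA that binds Pumilio proteins, had 2 intervals at its ends on chromosome 2. One had folds of 25.9, 18.6 and 18.1 (mean 20.9 ± 4.35, SD, n = 3) and the other 16.4, 12.9 and 6.23 (mean 11.9 ± 5.18, SD, n = 3). A LacZ interval at the Norad end, from 156386682 to 156388288, lay 383 bp from the stronger of them with LacZ folds of 71.0, 24.0 and 42.1 (mean 45.7 ± 23.7, SD, n = 3). Norad was thus marked in both lists, at neighbouring positions that do not overlap. No LacZ interval was chosen by the same positions at any other lncRNA gene named here from the Gm4665 list.

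Malat1, an abundant RNA of nuclear speckles, had only a weak interval, whose midpoint lay 1493 bp past the 3′ end, with folds of 8.01, 5.99 and 6.67 (mean 6.89 ± 1.03, SD, n = 3). Sox2ot, which overlaps the pluripotency gene Sox2, had 11.1, 9.58 and 12.1 (mean 10.9 ± 1.27, SD, n = 3). Mhrt, a heart lncRNA from the myosin heavy chain locus, shared an interval inside Myh7 with Gm31251, where folds were 12.8, 15.6 and 12.6 (mean 13.7 ± 1.72, SD, n = 3). That interval, from 54975603 to 54976362 on chromosome 14, also covered the hairpin of the microRNA gene Mir208b (54975700 to 54975776, minus strand), the only miRNA hairpin of the RefSeq table under any of the 1476 intervals. Its mature forms are printed with the seed, bases 2 to 8, in capitals; this hairpin was noticed after the values were seen.
mmu-miR-208b-3p: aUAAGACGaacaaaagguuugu
mmu-miR-208b-5p: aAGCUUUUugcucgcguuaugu

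Host genes of small RNAs were marked in 2 of 32 cases (6.25%, 95% Wilson interval 1.73% to 20.1%), with no LacZ interval at any of them (0 of 32, up to 10.7% by the same interval). Over all autosomal lncRNA genes the shares were 11.8% for Gm4665 and 3.33% for LacZ, both within those intervals. Snhg4, which hosts a small nucleolar RNA, had intervals of 14.98 ± 1.81 and 6.47 ± 0.303, and Mirc35hg, the host of a microRNA cluster, had 10.3 ± 2.02 (mean fold, SD, n = 3 each). Opposite-strand lncRNAs, named for the gene they run against, were marked in 18 of 209 cases (8.61%, 5.52% to 13.2%), and 9 of the 209 in the LacZ list (4.31%, 2.28% to 7.98%). Both intervals span the shares over all genes, 11.8% and 3.33%. The strongest of these was Dlx4os, opposite the homeobox gene Dlx4, with folds of 40.1, 30.8 and 36.8. It was followed by Arhgap15os (34.4, 21.4 and 34.1) and by Dnmt3aos, inside the DNA methyltransferase gene Dnmt3a (27.5, 22.1 and 25.1). Rsf1os1, in a chromatin remodelling gene, averaged 22.5 ± 3.77 and Zfp85os, at a zinc finger gene, 20.4 ± 6.56 (fold, SD over 3 replicates).

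RIKEN clones carry a number that names their cDNA library, and those with the numbers of testis libraries were taken as a list. Of 871 such genes, 101 (11.6%, 95% Wilson interval 9.64% to 13.9%) had an interval at an end, beside 11.8% of all autosomal lncRNA genes. The LacZ list marked 32 of them (3.67%, 2.61% to 5.14%), beside 3.33% of all. Both shares over all genes lie within the intervals of the testis clones. Their 104 intervals had a median mean fold of 10.01, beside 10.6 over all 1476. Leading members were 1700025M24Rik (57.3, 34.2 and 41.9), 1700083H02Rik (39.3, 28.4 and 48.5), 4930505K14Rik (47.4, 29.6 and 36.1), 4930477N07Rik (29.7, 32.3 and 39.5) and 4930597G03Rik (36.1, 17.1 and 39.1).

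**Figure D2:**
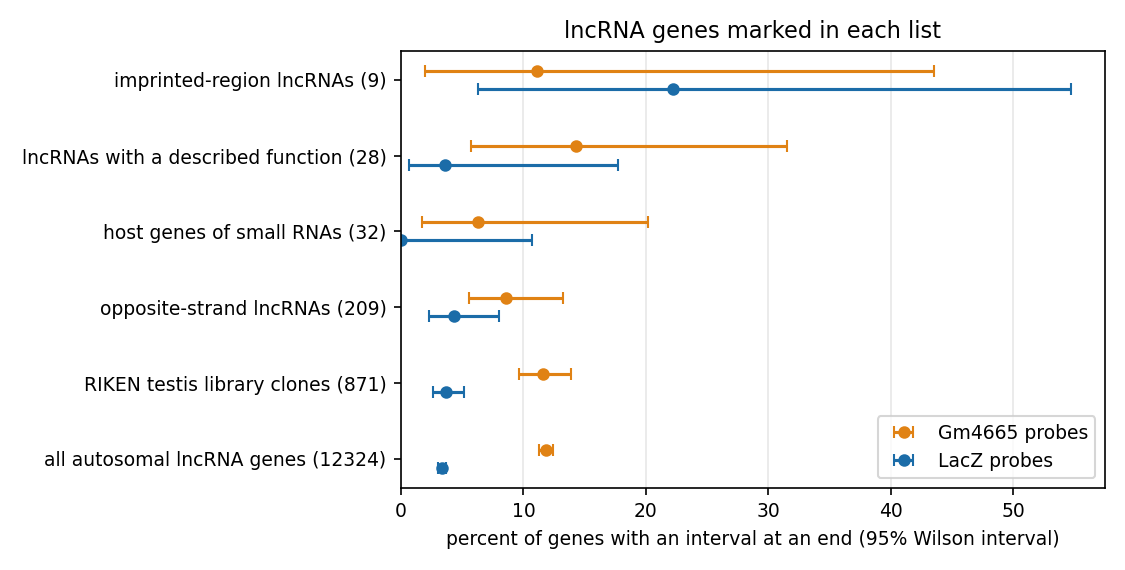
Percent of autosomal lncRNA genes in each list with an interval at an end, for Gm4665 probes and for LacZ probes; bars are 95% Wilson intervals and numbers in brackets are genes in the list. The Gm4665 interval of every list spans the 11.8% found over all 12324 genes, and the bars of the short lists are wide. The LacZ interval of the imprinted-region list (2 of 9 genes, 6.32% to 54.7%) leaves out the 3.33% found over all genes.

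Most marked genes had a single interval. There were 1385 genes with 1, 68 with 2 and 2 with 3, and 29 genes had separate intervals at the 5′ and the 3′ end. Gm39758, a gene near Sfmbt2 on chromosome 2, had 3 intervals, whose mean folds were 36.1 ± 6.84, 9.99 ± 2.28 and 6.62 ± 1.35 (SD over 3 replicates). E130310I04Rik, inside the myosin light chain kinase gene Mylk, also had 3, none above 12 on average, at 11.6 ± 1.73, 6.29 ± 0.804 and 6.27 ± 2.09. Gm39431 had a strong interval at each end, with 54.5 ± 8.89 at the 3′ end and 24.7 ± 6.03 at the 5′ end. Gm33631 and Gm38851 each paired a strong interval (49.7 ± 2.23 and 49.2 ± 16.6) with a weak one (8.27 ± 3.395 and 9.78 ± 1.12).

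Over the whole set, enrichment was close to that of other intervals. The median fold of the 1476 intervals was 11.9, 8.84 and 10.7 in replicates 1, 2 and 3 (mean 10.5 ± 1.53, SD, n = 3), and that of the other 35798 intervals without LacZ overlap was 11.4, 8.50 and 10.3 (mean 10.1 ± 1.46). Within each replicate the ratio of these medians was 1.04. Many folds (45.6% to 54.0% of all autosomal Gm4665 folds by replicate, to within 0.01 of a step) fell on a grid with steps of 0.341, 0.340 and 0.411, and on that grid the medians lay 1.42, 1.00 and 1.00 steps apart. In the set, mean folds ran from 6.10 at the 10th percentile to 25.2 at the 90th, and the lowest was 3.72.

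At LacZ intervals chosen by the same positions the median folds were 23.4, 8.70 and 10.9, beside 23.0, 8.18 and 10.9 at other LacZ intervals, which gives ratios of 1.02, 1.06 and 1.00. How the 2 lists were normalized is not given, and they share the input group, so only within-list ratios were tested between them. Gm4665 minus LacZ was 0.0137, with p = 0.5 by an exact permutation test, two-sided, 3 replicates against 3. The smallest p that this design allows is 0.1. LacZ replicate 1 was the highest at 94.7% of the chosen LacZ intervals. Without LacZ replicate 1, 2 or 3 the difference was 0.0086, 0.0317 or 0.00081.

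All 3 replicates had folds of 10 or more at 544 of the 1476 intervals (36.9%, 95% Wilson interval 34.4% to 39.3%). Over all 37274 intervals without LacZ overlap 34.8% did, a share within that interval. In the LacZ list, 135 of the 398 chosen intervals did (33.9%, 29.4% to 38.7%), beside 31.5% of all autosomal LacZ intervals. Wilson intervals here cover counting error only. The median width was 616 bp in the set and 583 bp elsewhere, and wider intervals had higher folds (Spearman's rho 0.83 over 1476 intervals, across intervals of the same libraries).

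**Figure D3:**
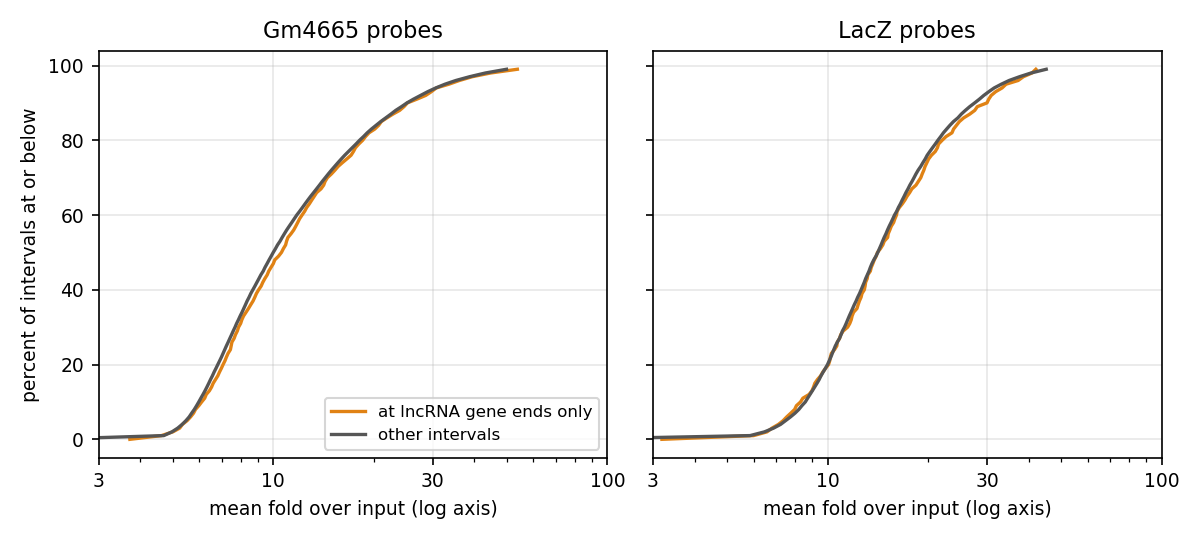
Cumulative percent of intervals against mean fold over input (log axis, mean of 3 replicates; the top 1% is not drawn), for Gm4665 probes on the left and LacZ probes on the right. In both lists the curve for intervals at lncRNA gene ends runs close to that of the other intervals; medians are 10.6 against 9.99 and 14.1 against 14.1.

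The share of intervals at such positions was also close between the probe sets. It was 3.96% for Gm4665 (95% Wilson interval 3.77% to 4.16%) and 4.32% for LacZ (3.92% to 4.75%), and those intervals overlap. The windows that the rule searches cover 79.2 Mb, or 3.30% of the autosomal span of 2403 Mb from 3 Mb onward, with mappability not taken into account. By chromosome the Gm4665 share ran from 2.98% on chromosome 16 (41 of 1374) to 4.64% on chromosome 14 (83 of 1790). In the LacZ list it ran from 1.99% on chromosome 5 to 6.82% on chromosome 10. On chromosome 14, 13.7% of the lncRNA genes were marked by Gm4665 intervals, and on chromosome 16 it was 9.16%.

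The position rule has a threshold, and folds at its edge covered much the same range on both sides. The 5 nearest inside, with midpoints 1998 to 2000 bp from a lncRNA gene end, had mean folds from 5.47 to 31.1. The 5 nearest outside, at 2001 to 2006 bp, had mean folds from 5.78 to 27.4. A LacZ interval lay within 10 kb of 144 of the 1476 intervals, the closest at 37 bp, and the median distance to one was 72.4 kb.

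Gm4665 intervals lay at the 5′ and the 3′ ends of lncRNA genes about equally often. The strand could be read from the RefSeq promoter table for 1159 of the 1527 pairs of an interval and a gene; of these, 548 (47.3%, 95% Wilson interval 44.4% to 50.2%) were at the 5′ end only, 545 (47.0%, 44.2% to 49.9%) at the 3′ end only and 66 (5.69%) within reach of both ends of a short gene. LacZ intervals divided into 144, 151 and 23 of 318. The midpoint lay upstream of the gene in 297 of the 548 at the 5′ end (54.2%, 50.01% to 58.3%) and downstream in 290 of the 545 at the 3′ end (53.2%, 49.0% to 57.4%). Those counts leave out the 66 pairs within reach of both ends. A midpoint inside a gene shorter than 2 kb always falls among those pairs, so both shares lean toward midpoints outside the gene. With the 66 kept, the 500 bp before the start held 89 of 614 and the 500 bp after it 94. At the 3′ end the 500 bp inside the gene held 62 of 611 and the 500 bp past it 63. In 500 bp bins around the start, each bin held 10.4% to 15.3% of the intervals, where an even spread gives 12.5%. The highest was the first 500 bp inside the gene (94 of 614, 15.3%, 12.7% to 18.4%), the only one of 16 bins at the 2 ends whose Wilson interval leaves out the even share. These intervals are not adjusted for the 16 bins, and this bin was not tested against chance. For LacZ the highest bin around the start was 500 to 1000 bp inside the gene (28 of 167, 16.8%, 11.9% to 23.2%).

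**Figure D4:**
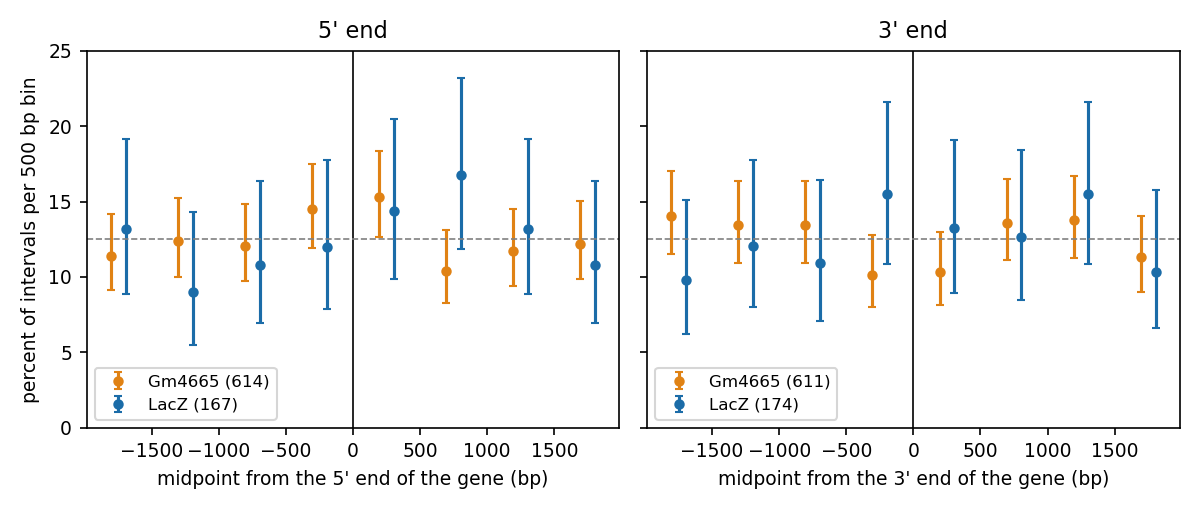
Percent of intervals in 500 bp bins of the distance from interval midpoint to the 5′ end (left) or 3′ end (right) of the lncRNA gene, negative values upstream; points are Gm4665 and LacZ intervals, bars are 95% Wilson intervals and the dashed line is an even spread (12.5%). Gm4665 bins range from 10.1% to 15.3%, and the bar of the first bin inside the 5′ end lies just above the line.

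Enrichment at the ends was compared next. Medians in the 3 replicates were 11.9, 9.18 and 10.5 for 510 intervals at a 5′ end and 11.8, 8.50 and 10.6 for 510 at a 3′ end (intervals near a single lncRNA gene). The ratio of 5′ to 3′ medians was 1.02 ± 0.0496 for Gm4665 and 1.04 ± 0.0596 for LacZ (SD, n = 3 each), a difference of -0.0198 with exact permutation p = 0.8, two-sided. This difference turned to 0.00482 without LacZ replicate 2. The Gm4665 ratio itself lay on both sides of 1, at 1.01, 1.08 and 0.986.

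An annotated start lay under 137 of the 1476 intervals (9.28%) and under 48 of the 398 LacZ intervals (12.1%), which were wider, with a median of 844.5 bp. Starts were known for 9291 of the 12324 lncRNA genes (75.4%), so both shares are minimums. These 137 had median folds of 16.4, 12.3 and 14.0, above those of the whole set, and a median width of 810 bp; a wide interval covers more positions, and the part of width in this was not tested. The 153 promoters under them had a median GC content of 49.3%, beside 47.3% over 9402 lncRNA promoters that lie over 2 kb from protein-coding gene ends. At least 15 CG dinucleotides in 300 bases, a mark of CpG-rich promoters, were found in 8 of the 153 (5.23%, 95% Wilson interval 2.67% to 9.98%), in 4.32% of those 9402 and in 12.3% of all 11311 autosomal lncRNA promoters. The rule leaves out ends beside protein-coding genes, so the 9402 are the closer comparison.

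Each word was found in the promoters under the intervals in a share whose Wilson interval spans that of the 9402. TATAAA, the core of the TATA box, was in 17.6% of the promoters under the intervals, in 16.8% of the 9402 and in 15.2% of all lncRNA promoters. CCAAT was in 39.2%, 36.3% and 35.8%, and GGGCGG, the GC box, in 10.5%, 10.01% and 16.3%. TGACGTCA, the cAMP response element bound by CREM in spermatids, was in 2 of the 153 (1.31%), in 0.755% and in 0.990%. Runs of CA were in 2.61%, 2.34% and 2.20%, and runs of GA in 1.31%, 1.53% and 1.44%. Under LacZ intervals TATAAA was in 2 of 49 promoters (4.08%, 95% Wilson interval 1.13% to 13.7%), beside an interval of 12.4% to 24.5% for Gm4665. Under the same LacZ intervals CCAAT was in 14 of 49 (28.6%, 17.8% to 42.4%) and GGGCGG in 5 of 49 (10.2%, 4.44% to 21.8%). The remaining 3 words were in 0 of the 49, which allows up to 7.27% by the Wilson interval. These shares describe letters in a window and no binding.

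Intervals inside protein-coding genes had higher median folds than those outside in each of the 3 Gm4665 replicates. Whether this differs from LacZ could not be decided, since the exact permutation test can give no p below 0.1 with 3 replicates against 3. There were 413 of 1476 inside (28.0%, 95% Wilson interval 25.8% to 30.3%), and 27.8% of the searched sequence is inside such genes; in the LacZ list it was 123 of 398 (30.9%). Median folds were 12.8, 9.52 and 11.1 inside and 11.5, 8.69 and 10.4 outside, with ratios of 1.11, 1.10 and 1.07 (mean 1.09 ± 0.0196, SD, n = 3). The LacZ ratios were 1.05, 0.975 and 0.921 (mean 0.983 ± 0.0661, SD, n = 3), all below the lowest Gm4665 ratio. The difference of 0.108 had exact permutation p = 0.1, two-sided, the smallest the design allows, and 0.3 after Benjamini-Hochberg adjustment over 3 such contrasts. It was 0.0264 (exact permutation p = 0.6) with geometric means in place of medians, 0.226 (p = 0.1) with windows of 1 kb and 0.0475 (p = 0.2) with 5 kb. Away from lncRNA and protein-coding gene ends the same ratio was 1.03, 1.03 and 1.01 for Gm4665 (mean 1.02 ± 0.0135, SD, n = 3). For LacZ it was 0.953, 1.00 and 0.997 there (mean 0.984 ± 0.0262, SD, n = 3). All LacZ ratios were again below the lowest Gm4665 ratio, so this order was not particular to lncRNA gene ends.

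The midpoint lay inside the lncRNA gene in 731 of 1527 pairs (47.9%). Among intervals near a single lncRNA gene, the 684 inside it had median folds of 12.02, 9.18 and 11.1, and the 741 outside it 11.4, 8.75 and 10.3, ratios of 1.06, 1.05 and 1.08 (mean 1.06 ± 0.0160, SD, n = 3). The LacZ ratios, 1.09, 0.971 and 1.04 (mean 1.04 ± 0.0604, SD, n = 3), lay on both sides of 1. The difference between probe sets was 0.0267 with exact permutation p = 0.6, two-sided (0.8 adjusted), and it turned to -0.00513 without LacZ replicate 2. Genes with a curated RefSeq transcript were marked in 348 of 3220 cases (10.8%, 95% Wilson interval 9.78% to 11.9%), beside 11.8% of all. Marked genes had a median length of 8691 bp, beside 8425 bp for all autosomal lncRNA genes.

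**Figure D5:**
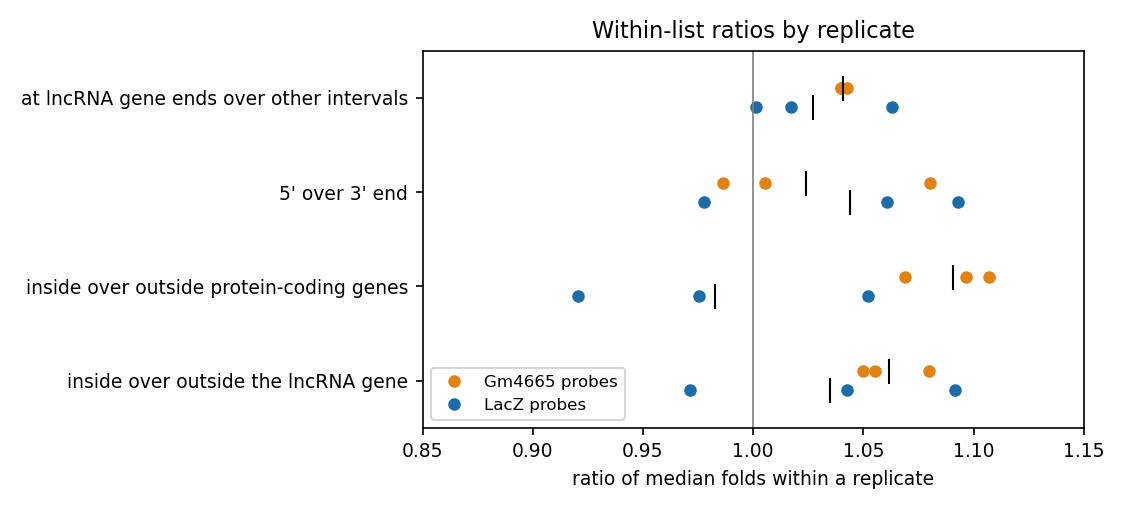
Ratio of median folds within each replicate for 4 contrasts that involve intervals at lncRNA gene ends, Gm4665 and LacZ probes; points are replicates, black ticks are means over 3 replicates and the grey line is 1. Gm4665 and LacZ replicates do not overlap for intervals inside against outside protein-coding genes (1.07 to 1.11 against 0.921 to 1.05), and they overlap or lie among each other in the remaining contrasts.

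The LacZ probes led at other lncRNA genes. The strongest chosen LacZ interval, from 66510631 to 66513007 on chromosome 10, spanned the annotated start of Gm40677, with its midpoint 693 bp inside the gene, and had folds of 89.0, 39.1 and 72.3 (mean 66.8 ± 25.4, SD, n = 3). Gm52150 followed with 73.7, 27.7 and 44.4, then Norad, and LOC115488162 inside Gfod1 with 62.4, 31.4 and 35.2. Gm32585, whose nearest protein-coding gene is the lipoprotein receptor gene Scarb1, had 64.7, 19.8 and 41.3. Replicate 1 was the highest at each of these 5 genes.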

How the data were processed

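The 2 deposited peak lists were used, each with 3 linear fold enrichments over input per interval, per the file headers, and a pileup signal, per the file headers; the deposited pileup follows replicate 1 (in 46.7% of autosomal Gm4665 intervals replicate 1 fold over pileup plus 1 was within 0.0005, as a fraction, of its highest value, and in 0.00266% for replicates 2 and 3). Peaks were made with MACS2 per the file names and mm10 is the build in the submitters' processing notes. The aligner, settings and how replicates were joined: not given in the sources used here. Library totals were not used here; the median pileup of the set was 39.

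Repeated rows (649 Gm4665, 165 LacZ) were joined, keeping the highest fold of each replicate. Genes came from RefSeq on GRCm38.p6 (12324 lncRNA and 20560 protein-coding genes; 328 of 47042 autosomal entries starting below 3 Mb were left out, since assembled mouse chromosomes begin with a gap of that length), strand and promoters from the matching promoter table (9291 of the lncRNA genes). An overlap is 1 bp or more. Replicates, never intervals, entered the exact permutation tests. Members, lists and contrasts were chosen with earlier results of these data known. Named genes are Gm4665, the 15 strongest and 3 widest intervals, the 5 genes with most intervals (ties by fold), up to 5 of each of 5 name lists, and 5 LacZ intervals. Of names fixed for imprinted and described lncRNAs, 9 of 10 and 28 of 31 were found. The code for positions and tests was tested on simulated data. Python 3.11.15, numpy 2.4.6, pandas 2.3.3 and scipy 1.17.1 were used. Alternatives were other windows, placement by any base or by summit, fold minimums, stricter specificity, geometric means, other comparison sets, the replicate number as a block and leaving out replicates.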

Additional observations from a re-analysis of the deposited data

How the results depend on the processing

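Shares moved with the size of the search, by construction. With 1 kb windows, 5 kb windows and any base of the interval in place of the midpoint, the Gm4665 share at lncRNA gene ends was 2.22%, 7.55% and 4.50%, and the LacZ share 2.58%, 8.12% and 5.03%, so LacZ was the higher in each. A fold of at least 5, stricter specificity, placement by summit and keeping genes below 3 Mb left both shares within their Wilson intervals; the last of these changed neither. The share of the set past a fold in all replicates was 84.8% at 5 and 10.9% at 20 (84.3% and 10.1% of other intervals), and 38.2% to 48.2% when single replicates were left out (35.7% to 46.3% of other intervals). Averaged over replicates, the set's median fold ran from 9.77 to 11.3 when single replicates were left out and was 10.5 without the interval over Gm4665.

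The ratio of the set to other intervals stayed higher for Gm4665 than for LacZ under all 12 alternatives run, by 0.00081 to 0.0379 (exact permutation p from 0.1 to 1), and by 0.00081 to 0.0317 without each replicate of a probe set; no p fell below 0.1. The 5′ to 3′ contrast ran from -0.0529 to 0.00482 and the contrast inside against outside the lncRNA gene from -0.00513 to 0.0549 when replicates were left out, turning in sign without LacZ replicate 2; the cause was not tested. Inside against outside protein-coding genes ran from 0.077 to 0.143. With the replicate number as a block, exact permutation p was 0.5 for the set against other intervals (0.0137) and 0.25, the smallest possible, for protein-coding genes (0.108); the block changed no call. No pairing by number was seen in the folds: over 343 overlapping intervals, deviations of same-numbered replicates correlated at -0.0383, -0.0283 and -0.000946. Differently numbered replicates correlated at -0.155 to 0.187, and no replicate correlated best with its own number. Whether same-numbered samples share an animal or an input library is not given by the labels and was not tested. Summits, genes below 3 Mb, the Gm4665 interval and the settings of the 3 contrasts within the set were chosen after seeing the data. With 3 replicates a probe set, no exact p can fall below 0.1, which limits every comparison between them.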

Other observations

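Over all autosomes, 343 of 37617 Gm4665 intervals overlapped a LacZ interval. At the positions of the rule 20 did, beside the 1476 that did not, and the rule left these 20 out. Their median folds were 12.2, 7.82 and 9.24 in the 3 replicates, and 6 of the 20 reached 10 in all of them (30%, 95% Wilson interval 14.5% to 51.9%), beside 36.9% of the set and 34.8% of all autosomal Gm4665 intervals without LacZ overlap.

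The promoter of Gm36304, printed above, holds 4 copies of the word cacctcctca, noticed after the sequence was seen. A word of 10 bases with at least 3 different letters and 4 or more copies that do not overlap was found in 2 of the 153 promoters under the intervals (1.31%, 95% Wilson interval 0.359% to 4.64%) and in 1.33% of the 9402 lncRNA promoters over 2 kb from protein-coding gene ends.

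Intervals near both ends of a short lncRNA gene, 63 with a single gene in reach, had median folds of 13.3, 11.6 and 12.7. Of these, 32 (50.8%, 95% Wilson interval 38.8% to 62.7%) reached 10 in all replicates. The share was 36.9% in the set and 34.8% over all 37274 Gm4665 intervals without LacZ overlap. The 63 are among several subsets that were looked at, and their share was not tested. Their median width was 742 bp, beside 616 bp, and the part of width in this was not tested.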
